A study of Mus musculus with 12 samples.

Results

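The proteasome subunit genes are the mouse protein-coding genes whose symbols start with Psm, one of the letters a to g and a digit, without the inducible catalytic subunits Psmb8, Psmb9 and Psmb10. Symbols and gene types came from GENCODE M21, and the rule found 47 genes among the 55401 gene identifiers of the count tables. Of these, 14 encode the core particle (7 of the alpha ring and 7 of the beta ring) and 17 encode the regulatory particle (6 base ATPases, 3 base subunits that are not ATPases and 8 lid subunits). The other 16 are 5 activators, the inhibitor Psmf1, 4 core assembly chaperones, 3 base assembly chaperones, the tissue-restricted core subunits Psma8 and Psmb11, and Psmc3ip. Psmc3ip matches the pattern of letters but is not a subunit: it encodes a partner of the recombinases of meiosis that was named for binding Psmc3. The members were counted by RNA-seq of bulk OT-I CD8 T cells in 12 libraries. These cells carry a transgenic receptor for an ovalbumin peptide. Per the labels, the 3 naive libraries (day 0) were made from lymph node cells of OT-I mice with no tumour, and the 3 effector libraries from cells stimulated with antigen in culture for 5 days. The other 6 libraries were made from CD44+ OT-I cells sorted out of B78ChOVA melanomas of C57Bl6/J hosts, 3 libraries at 4 days and 3 at 14 days after transfer, which the labels call exhausted. B78ChOVA is a melanoma line that carries ovalbumin, so all groups share the receptor, and the tumour groups alone share the transfer, the tumour and the CD44 sort, which cannot be told apart here. The labels do not say whether the 3 libraries of a group came from separate animals or cultures, so p-values measure the spread between these libraries, which may be technical.

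The proteasome degrades proteins that carry ubiquitin chains. Its core particle is a barrel of stacked alpha and beta rings, with the catalytic sites on beta subunits inside and a gate formed by the alpha subunits. The regulatory particle sits on the gate: it binds ubiquitin chains, its lid cuts them off, and the ATPases of its base unfold the substrate and thread it into the barrel. Activators of the Psme family can dock in its place, and dedicated chaperones assemble each particle. In lymphocytes the proteasome is best known for an inducible form, whose catalytic subunits respond to interferon and which cuts peptides for class I molecules. The subunit genes are known to be transcribed together, among others through the factors Nfe2l1 and Nfe2l2, which bind antioxidant response elements.

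Libraries held 11937053 to 17094006 counts in genes. Of the counts on a strand, 49.8% to 49.9% lay on the sense strand, so the libraries keep no strand. Where genes overlap, the strand cannot tell their reads apart. Reads ambiguous between genes were counted apart from the genes, at 3.22% to 3.81% of reads. Levels below are counts scaled to a common library total (CPM) with TMM factors, which allow for differences in library composition. The 7 T cell markers summed to 4256 to 4698 CPM in naive, 5239.6 to 5745 in effector, 2754 to 3313 in day 4 and 3850.4 to 4001 in day 14 libraries, and Cd4 stayed under 5 CPM in every library. The sums of melanoma, macrophage and dendritic cell markers were higher in the tumour groups, and those of B cell and endothelial markers were lower. Erythroid sums of both tumour groups overlapped with naive libraries. Fibroblast sums were 0.23 to 1.33 CPM in naive, 0.513 to 22 in day 4 and 5.48 to 17.4 in day 14 libraries. They overlapped with naive at day 4 only, and every day 14 library was above every naive library. Neutrophil sums were 0.306 to 1.11 CPM in naive, 0 to 1.2 in day 4 and 0 to 0.242 in day 14 libraries. The 8 melanoma markers summed to 26.3 to 32.8 CPM in naive and 36.8 to 42.4 in effector libraries, against 687 to 1030.3 at day 4 and 426 to 1659 at day 14. The 9 macrophage markers summed to 14.1 to 27.3, 5.34 to 9.63, 64.4 to 131 and 66.4 to 119 CPM in that order of groups, and the 5 dendritic cell markers to 2.14 to 7.91, 6.18 to 15.7, 20.4 to 33 and 41.4 to 52.6. Apoe made up much of the macrophage rise (mean 4.26 CPM in naive, 45.1 at day 4), and Csf1r did not rise (2.33 and 2.15). Itgax had its highest mean in effector cells (6.43 CPM). The 4 B cell markers summed to 14.9 to 15.8 CPM in naive and 1.53 to 3.3 in day 14 libraries. The 3 endothelial markers, mostly Pecam1, summed to 178 to 198 and 41.7 to 56.5 CPM. Only Pecam1 fell (mean 185 CPM in naive, 48.5 at day 14). Cdh5 (0.152 and 0.866 CPM) and Kdr (0 and 1.43) were near the floor and had higher means at day 14. Most of that came from day 14 replicate 1, at 2.18 CPM of Cdh5 and 3.76 of Kdr. The 7 cell cycle genes (Mki67, Top2a, Ccnb1, Ccna2, Cdk1, Birc5 and Tpx2) summed to 77.6 to 257 CPM in naive, 101 to 989.8 in effector, 3690.2 to 3916 in day 4 and 3461 to 4473 in day 14 libraries. Effector replicate 2 stood apart with 989.8 CPM of cell cycle genes, against 101 and 160.3 in the other effector libraries. No marker of these lists was at 0 in all libraries. The part of these cells and of cell division in the results was not tested, and in bulk samples more cells of a kind cannot be told from more RNA per cell.

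Promoter windows of 39 of the 47 members were found in RefSeq's table for GRCm38.p6, from 250 bases before to 50 after each start site. They were searched on both strands for 3 motifs: the ETS-type motif CCGGAAG, the NF-Y box CCAAT and the core of the antioxidant response element, TGACNNNGC. None of the 3 is contained in another. The ETS-type motif split the particles: 9 of the 14 regulatory particle genes with a window held it (64.3%) but only 1 of the 11 core genes (9.09%, Psma6). It was present in 9.93% of all 27025 genes of the table and in 20.0% of the 10466 that were also tested for expression. The stretches around the match in the 9 regulatory particle genes are shown because this motif differed most between the particles, with the motif or its reverse complement in capitals. Each is written 5′ to 3′ on the strand of its gene, and for Psmc2, which has a match in both of its windows, the window of one start site is shown.
Psmc1, chr12:100110147-100110207, plus strand: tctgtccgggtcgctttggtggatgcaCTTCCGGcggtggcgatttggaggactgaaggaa
Psmc2, chr5:21786696-21786756, plus strand: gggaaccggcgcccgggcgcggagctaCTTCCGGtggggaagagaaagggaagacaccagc
Psmc6, chr14:45329697-45329757, plus strand: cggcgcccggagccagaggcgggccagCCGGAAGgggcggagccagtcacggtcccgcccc
Psmd2, chr16:20651599-20651659, plus strand: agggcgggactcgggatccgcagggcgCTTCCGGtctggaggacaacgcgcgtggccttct
Psmd4, chr3:95042706-95042766, minus strand: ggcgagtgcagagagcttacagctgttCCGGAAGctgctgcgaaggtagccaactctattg
Psmd6, chr14:14120957-14121017, minus strand: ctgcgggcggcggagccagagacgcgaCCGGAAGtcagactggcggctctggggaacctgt
Psmd11, chr11:80428577-80428637, plus strand: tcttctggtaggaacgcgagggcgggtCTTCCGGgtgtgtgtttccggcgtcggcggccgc
Psmd12, chr11:107479484-107479544, plus strand: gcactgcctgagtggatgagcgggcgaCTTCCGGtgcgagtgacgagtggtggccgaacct
Psmd13, chr7:140882361-140882421, plus strand: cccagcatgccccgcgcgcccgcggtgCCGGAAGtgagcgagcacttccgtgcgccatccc
In 7 of these 9 stretches the match begins less than 50 bases before the start site, at position -6 in Psmd13, -11 in Psmd11, -17 in Psmd12, -24 in Psmc2, -26 in Psmd2, -28 in Psmc1 and -45 in Psmd6. The match lies at -100 in Psmc6 and at -125 in Psmd4. In the window of Psmc2 that is not shown, the match lies at -84.

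The NF-Y box leaned the other way, in 6 of 11 core genes (54.5%) and 4 of 14 regulatory particle genes (28.6%), against 42.9% of the tested genes. Psma1, which had the highest fold change of the core at day 4, has 2 boxes, of which the distal is in capitals in the stretch below, and Psmb3 is shown as the beta ring example.
Psma1, chr7:114276211-114276269, minus strand: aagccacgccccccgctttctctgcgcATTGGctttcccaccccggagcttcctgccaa
Psmb3, chr11:97703322-97703380, plus strand: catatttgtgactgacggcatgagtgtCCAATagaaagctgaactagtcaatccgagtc
The antioxidant core was found in 2 of 11 core genes (18.2%) and 2 of 14 regulatory particle genes (14.3%), close to the 17.0% of the tested genes. The core genes are Psmb5 and Psmb6, both catalytic, and the regulatory particle genes are Psmc6 and Psmd12. The catalytic pair is shown with the match in capitals.
Psmb5, chr14:54618007-54618069, minus strand: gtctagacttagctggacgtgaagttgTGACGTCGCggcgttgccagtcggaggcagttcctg
Psmb6, chr11:70525321-70525383, plus strand: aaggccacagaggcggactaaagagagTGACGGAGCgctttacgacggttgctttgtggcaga
A match is a description of these letters and not a bound site, and a window without one says nothing about the factor.

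**Figure D1:**
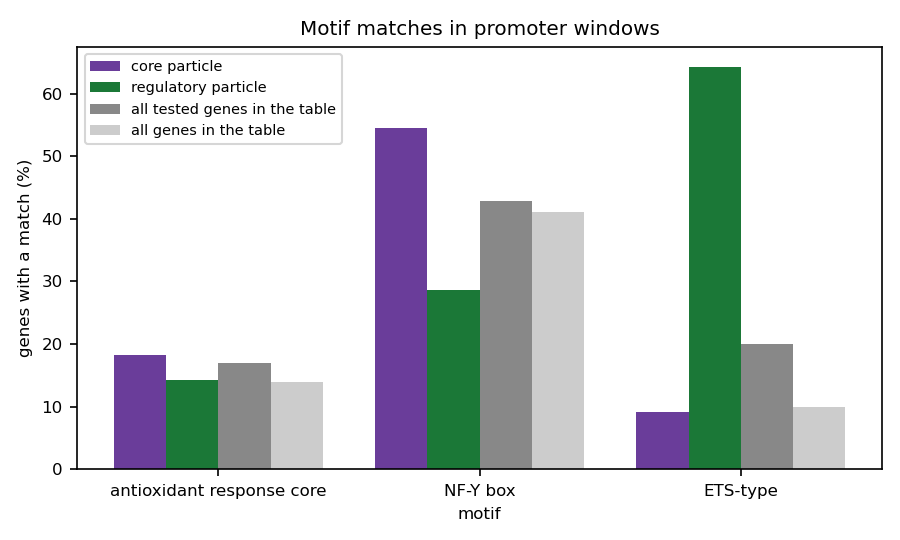
Share of genes (percent, vertical axis) whose RefSeq promoter windows hold each of 3 motifs, for the core particle (11 genes), the regulatory particle (14 genes), all tested genes in the table (10466) and all genes in the table (27025). The ETS-type bar of the regulatory particle stands at 64.3%, against 9.09% for the core and 20.0% for the tested genes.

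The subunit genes of both particles were higher in the tumour groups than in naive cells. The core particle's 14 genes summed to 893, 995 and 1025 CPM in the naive, 1013, 1138 and 1012 in the effector, 1961, 1800.2 and 2024 in the day 4 and 1705, 1910.1 and 1990.0 in the day 14 libraries. The 6 tumour libraries were all above the 6 others, and the naive and effector libraries overlapped. The 17 genes of the regulatory particle summed to 1074, 1221 and 1270.0 CPM in naive, 1253, 1263 and 1164 in effector, 2209.9, 2010.1 and 2077 in day 4 and 1792, 1922 and 2003 in day 14 libraries, again with no overlap between tumour and other libraries. Effector replicate 2, with its cell cycle genes at 989.8 CPM, had the highest core sum of the 6 libraries outside tumours, 1138 CPM. Its regulatory particle sum, 1263 CPM, was below that of naive replicate 3, 1270.0 CPM. The lowest core sum of the tumour libraries, 1705 CPM, was that of day 14 replicate 1. This library had the highest melanoma marker sum, 1659 CPM. Day 14 replicate 3 had the lowest melanoma marker sum of the tumour libraries, 426 CPM, and the highest core sum of its group. The part of cell division and of tumour RNA in these sums was not tested.

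Of the 45 members that passed the filter on low counts, 39 differed among the 4 groups in edgeR's F test (adjusted p under 0.05, adjusted by Benjamini-Hochberg over 16426 genes), against 74.8% of all tested genes. Psmd4, Psme1, Psmf1, Psmg2, Psmg3 and Psmg4 did not. Fold changes below are on the log2 scale with their standard error (±), and adjusted p-values are those of edgeR's quasi-likelihood test. Gene by gene, the 6 tumour libraries lay above the 6 others for 14 of 14 core genes and 14 of 17 regulatory particle genes, where 23.9% of all tested genes did so. The 3 exceptions were Psmd3, Psmd4 and Psmd7.

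**Figure D2:**
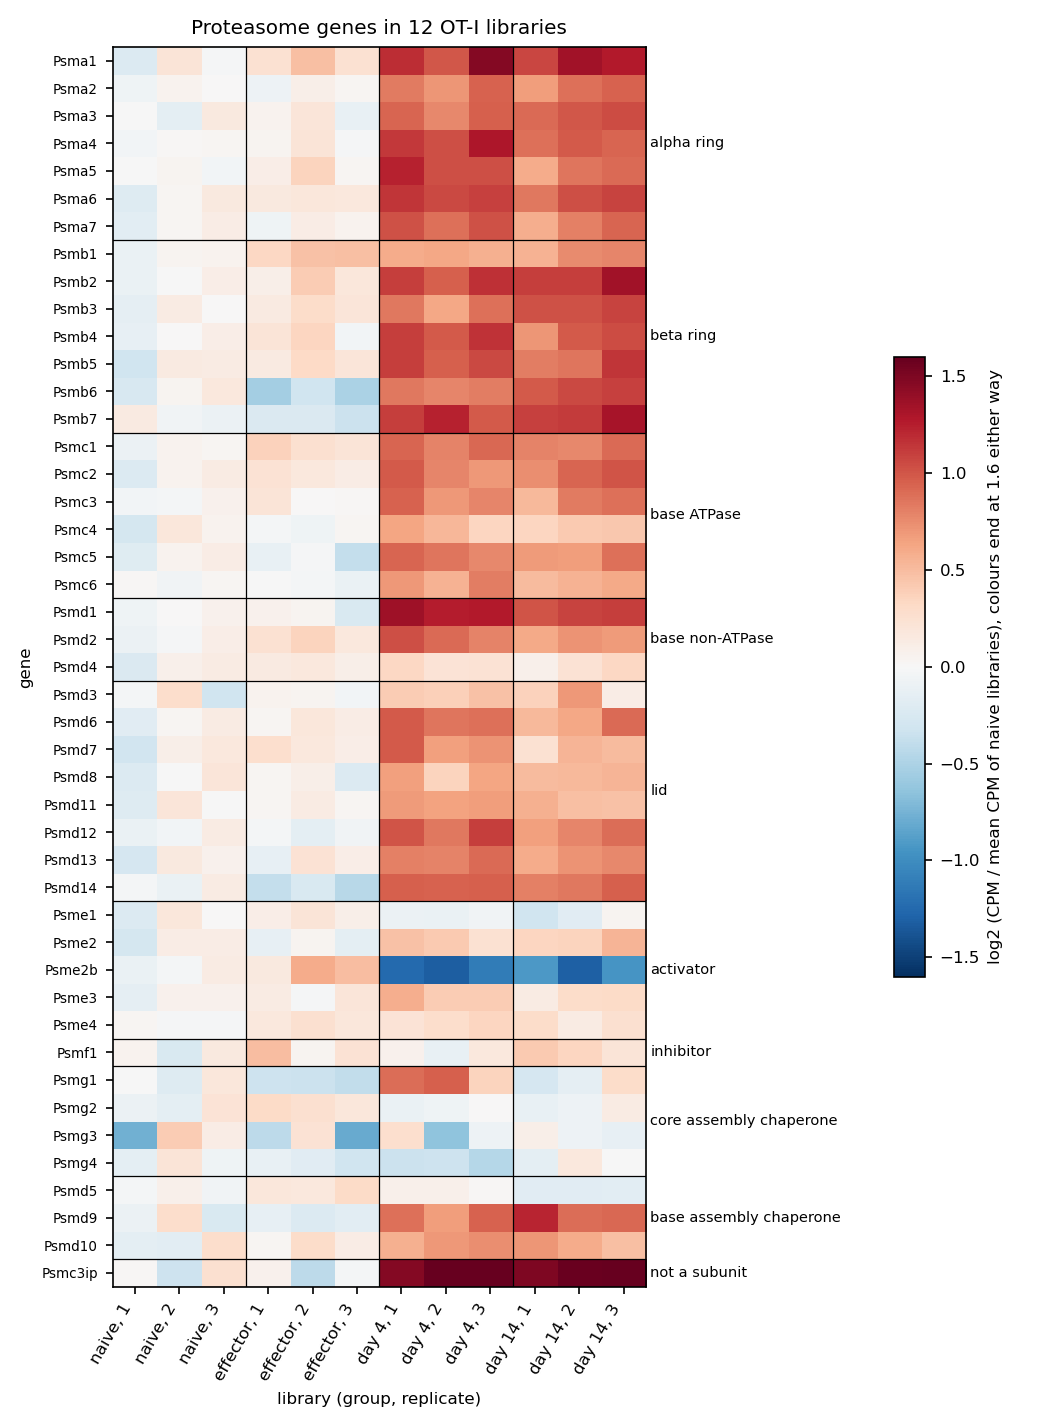
Heat map of 45 proteasome genes (rows, grouped by role) in 12 libraries (columns, 3 per group), coloured by log2 of CPM over the mean CPM of the naive libraries. Most alpha ring, beta ring, base and lid rows are red in the 6 day 4 and day 14 columns, with Psmd3 and Psmd4 paler. Psme2b is blue there, and Psme1, Psmg2, Psmg4 and Psmd5 stay pale.

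At day 4 against naive cells, edgeR's quasi-likelihood test called 38 of 45 members higher and 1 lower (adjusted p under 0.05), where 33.4% of all tested genes were called higher and 28.8% lower. All 14 core genes rose, with a median log2 fold change of 1.06 against 0.03 over all tested genes. All 17 regulatory particle genes rose too, with a median of 0.82. At day 14 against naive cells, 37 of 45 members were higher and 1 lower (33.6% and 28.5% of all tested genes), which took in 14 of 14 core genes (median 0.97) and 16 of 17 regulatory particle genes (median 0.69, against 0.04 over all tested genes). Against effector cells, 35 members were higher and 1 lower at day 4 (32.7% and 29.2% of all tested genes), and 33 were higher and 3 lower at day 14 (32.6% and 28.4%). The tumour groups share their comparison groups, so these counts are not independent of each other. The interquartile range of all tested genes at day 4 against naive ran from -0.76 to 0.97. The core median lay above this range and the regulatory particle median inside it. A log2 fold change of at least 1 was reached by 8 of 14 core genes and 1 of 17 regulatory particle genes (Psmd1). Counting rises and falls, 7246 of the 16426 tested genes had a log2 fold change of at least 1 in size.

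**Figure D3:**
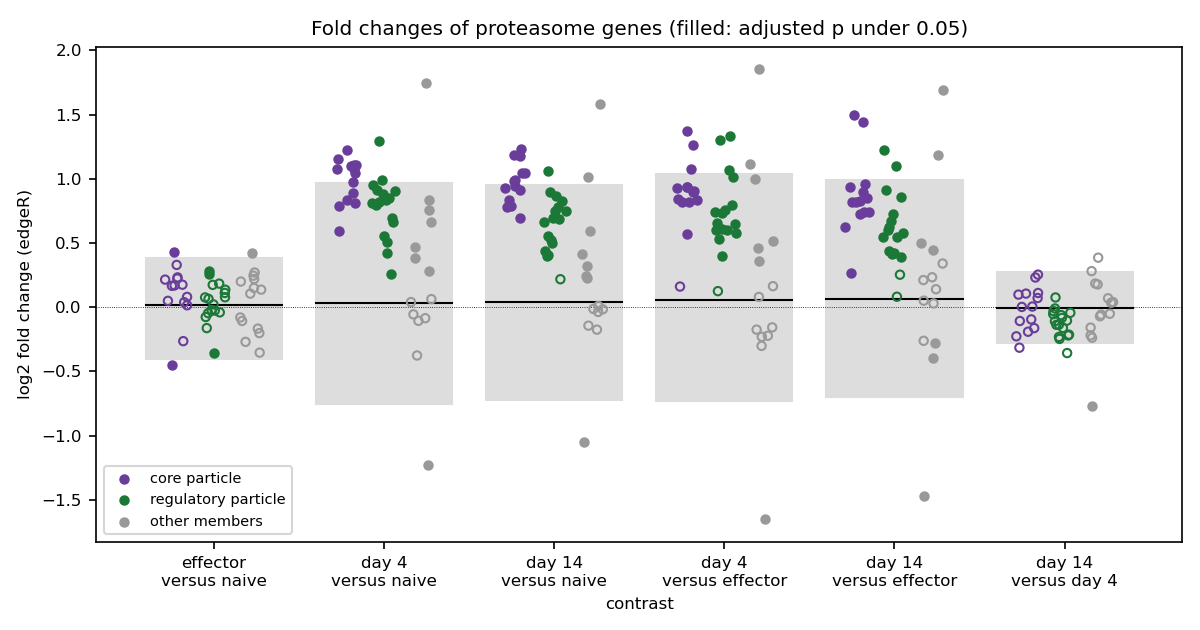
log2 fold changes (edgeR) of 45 proteasome genes in 6 contrasts, with 1 point per gene, filled where the adjusted p was under 0.05. Grey boxes span the interquartile range of all 16426 tested genes and black lines their median. In the 4 contrasts of tumour with other cells the core (purple) and regulatory particle (green) points lie above the black line, and in the contrasts at the far left and right they lie on both sides of it.

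In the alpha ring, which forms the gate, Psma1 had the highest fold change at day 4. It (chr7:114264606-114276118, minus strand, GRCm38) had 57.3, 77.5 and 66 CPM in the naive and 79.5, 93.8 and 79 CPM in the effector libraries. Libraries of day 4 held 152, 133 and 185 CPM and those of day 14 held 140.4, 169.6 and 161 CPM. Tumour libraries were all above the others, and day 4 and day 14 overlapped (1.23 ± 0.13 on the log2 scale, adjusted p = 8.07e-07 at day 4 and 1.23 ± 0.13 on the log2 scale, adjusted p = 8.12e-07 at day 14, against naive). Psma2 had the lowest fold change of the ring at day 4, with 117 ± 5.26 CPM in naive and 209 ± 17.3 CPM in day 4 cells (SD, n = 3; 0.83 ± 0.09 on the log2 scale, adjusted p = 9.9e-07). The fold changes of the 7 alpha genes at day 4 spanned 0.83 to 1.23. Psma5, with 47 ± 1.29 CPM in naive, 101 ± 8.43 at day 4 and 81.3 ± 8.87 at day 14 (SD, n = 3), had the lowest day 14 against day 4 value of the core (-0.32 ± 0.11 on the log2 scale, adjusted p = 0.0723). Psma3 had the highest value of the ring there (0.10 ± 0.10 on the log2 scale, adjusted p = 0.639). Neither was called. Of the 50-base words in Psma5 transcripts, 49.96% also occur in transcripts of other genes, mainly the processed pseudogene Gm8394, so its level is uncertain.

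The beta ring holds the catalytic subunits. Psmb6 (chr11:70525367-70527858, plus strand), the caspase-like subunit whose promoter stretch is shown above, had 52.3, 64.7 and 70.5 CPM in the naive and 42.9, 50.3 and 43.9 CPM in the effector libraries. Day 4 gave 112, 108 and 110.4 CPM and day 14 gave 124, 130.1 and 134 CPM. The effector libraries were the lowest of all, the naive libraries came next, and the tumour libraries were highest, with day 14 above day 4 in every library. Psmb6 fell in effector cells against naive (-0.45 ± 0.11 on the log2 scale, adjusted p = 0.00588) and rose at day 4 (0.82 ± 0.11 on the log2 scale, adjusted p = 5.68e-06) and day 14 (1.05 ± 0.11 on the log2 scale, adjusted p = 3.65e-07). The difference from effector cells at day 14, 1.498 on the log2 scale (SE 0.11), was the highest of the core. Between day 14 and day 4 it did not pass the test (0.23 ± 0.11 on the log2 scale, adjusted p = 0.185).

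Psmb7, the trypsin-like subunit, had 15, 13.1 and 12.7 CPM in the naive and 11.6, 11.6 and 10.8 CPM in the effector libraries. In tumours there were 29.4, 31.8 and 26.9 CPM at day 4 and 29, 29.5 and 34.1 CPM at day 14. Its tumour libraries were all above the others (1.11 ± 0.14 on the log2 scale, adjusted p = 4.14e-06 at day 4 and 1.18 ± 0.14 on the log2 scale, adjusted p = 2.12e-06 at day 14, against naive). Its exons are overlapped over 11.84% of their bases by Nek6 on the other strand, and Nek6 moved the same way, from 6.13 ± 0.404 CPM in naive to 47.5 ± 6.98 at day 4 and 70.1 ± 16.9 at day 14 (SD, n = 3). The effect of this overlap on the Psmb7 counts was not tested. Psmb5, the chymotrypsin-like subunit, had 16.9, 23.4 and 23 CPM in the naive and 23.4, 26.4 and 24.1 CPM in the effector libraries. Tumour libraries held 45.5, 41 and 44 CPM at day 4 and 37.3, 38.4 and 46.5 CPM at day 14. Here too all tumour libraries were above the others (1.04 ± 0.14 on the log2 scale, adjusted p = 9.01e-06 at day 4 and 0.95 ± 0.14 on the log2 scale, adjusted p = 2.5e-05 at day 14, against naive), and the naive and effector libraries were close, with naive replicate 1 lowest. Of its 50-base words, 54.07% occur in other genes, mainly the processed pseudogene Gm3375.

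Psmb1, a beta subunit without a catalytic site, differed from its ring in effector cells. It had 59.5, 66.2 and 66.8 CPM in the naive and 81, 88.8 and 89.8 CPM in the effector libraries. Cells from tumours had 97, 98.3 and 94.8 CPM at day 4 and 94.1, 108 and 109.8 CPM at day 14. The effector libraries were above all naive libraries and below all tumour libraries. Psmb1 rose in effector cells (0.43 ± 0.09 on the log2 scale, adjusted p = 0.00261), where it was the only core gene called higher, and had the lowest rise of the core at day 4 (0.59 ± 0.09 on the log2 scale, adjusted p = 3.41e-05). Against effector cells it was the only core gene that edgeR's test did not call at day 4 (0.16 ± 0.09 on the log2 scale, adjusted p = 0.137). It was called there with DESeq2 (adjusted p = 0.0462), with RLE factors (0.0496) or total counts (0.0266) as scaling and without day 14 replicate 1 (0.0427). Psmb3 and Psmb4 marked the ends of the ring between day 14 and day 4, with log2 fold changes of 0.25 (edgeR adjusted p = 0.13) and -0.16 (edgeR adjusted p = 0.411).

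Each constitutive catalytic subunit has an inducible counterpart that replaces it: Psmb9 for Psmb6, Psmb10 for Psmb7 and Psmb8 for Psmb5. Psmb9 rose in effector cells (0.85 ± 0.14 on the log2 scale, adjusted p = 0.00053) as did Psmb8 (0.50 ± 0.13 on the log2 scale, adjusted p = 0.00822), and all 3 were lower at day 4 than in effector cells (Psmb8 -0.72, Psmb9 -0.58 and Psmb10 -0.82 on the log2 scale, edgeR adjusted p = 0.000119, 0.00232 and 0.000141). At day 14, Psmb9 was higher than in naive cells (0.69 ± 0.14 on the log2 scale, adjusted p = 0.000629) and was not called against effector cells (-0.16, edgeR adjusted p = 0.356), while Psmb8 and Psmb10 were lower than in effector cells (-0.31 and -0.35, edgeR adjusted p = 0.0422 and 0.0454). From day 4 to day 14, Psmb8 and Psmb10 rose (0.41 and 0.47 on the log2 scale, edgeR adjusted p = 0.043 and 0.0472), and Psmb9 did not pass the test (0.43, edgeR adjusted p = 0.065). Per kilobase of exon, the ratio of Psmb9 to Psmb6 was 0.943, 1.03 and 0.85 in naive, 2, 2.18 and 2.76 in effector, 0.53, 0.653 and 0.742 in day 4 and 0.738, 0.781 and 0.684 in day 14 libraries. The ratio was highest in every effector library and lower in every tumour library than in any naive library. The ratio of Psmb8 to Psmb5 was 1.95, 1.85 and 1.51 in naive and 1.93, 1.99 and 2.48 in effector libraries, against 0.639, 0.791 and 0.771 at day 4 and 0.971, 1.21 and 0.954 at day 14, so the tumour libraries lay below the others and day 14 above day 4. The ratio of Psmb10 to Psmb7 was 5.56, 9.62 and 7.98 in naive, 9.71, 12.8 and 11.6 in effector, 2.3, 2.32 and 2.86 in day 4 and 3.25, 3.88 and 2.73 in day 14 libraries. Its size rests on the low level per kilobase of Psmb7, whose counts carry the overlap with Nek6.

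**Figure D4:**
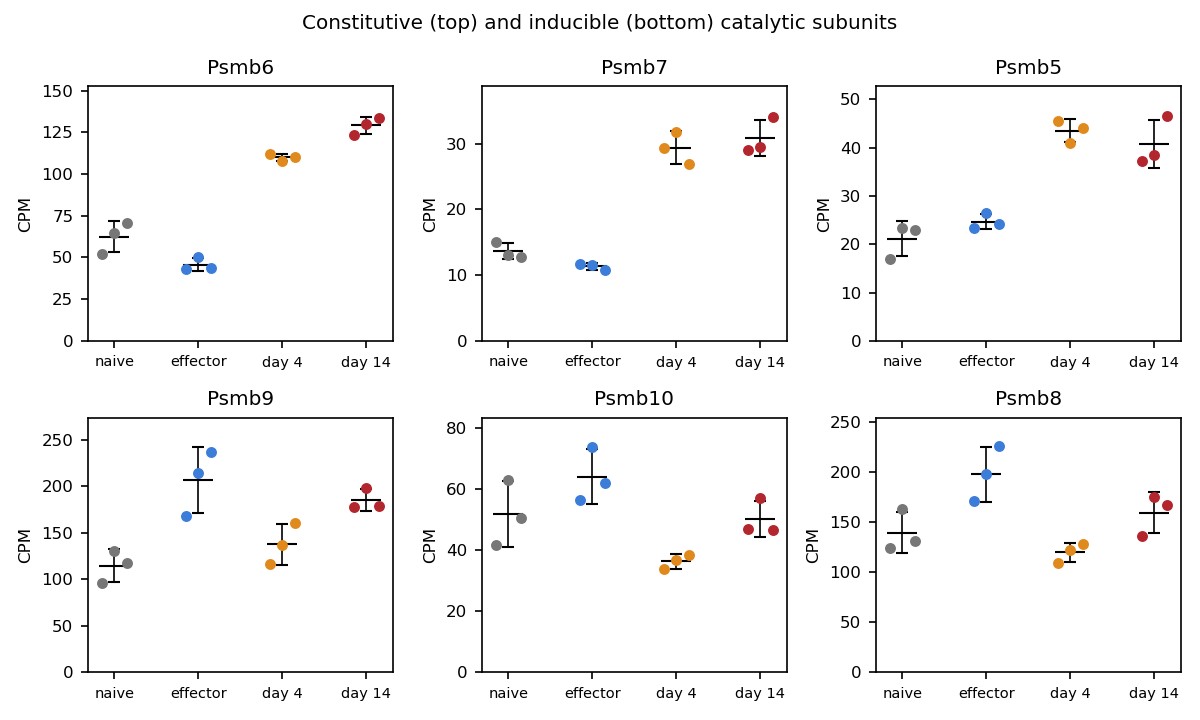
CPM (vertical axes, from 0) of the constitutive catalytic subunits Psmb6, Psmb7 and Psmb5 (top) and their inducible counterparts Psmb9, Psmb10 and Psmb8 (bottom) in 4 groups, with 1 point per library and bars of mean ± SD (n = 3). The top genes are highest in the tumour groups, and the bottom genes have their highest mean in effector cells.

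Among the base ATPases, which unfold the substrate, all 6 rose at day 4 (log2 fold changes 0.51 to 0.88) and at day 14 against naive (0.40 to 0.90). Psmc1 had 69, 76.8 and 74.9 CPM in the naive and 95, 87.7 and 85 CPM in the effector libraries. At day 4 there were 139.9, 127 and 139 CPM and at day 14 there were 128, 126 and 138 CPM. The effector libraries lay above the naive and below the tumour libraries, and Psmc1 was called higher in effector cells (0.28 ± 0.09 on the log2 scale, adjusted p = 0.0266) and at day 4 (0.88 ± 0.09 on the log2 scale, adjusted p = 2.32e-07). The effector call was lost without naive replicate 1 (adjusted p = 0.114), naive replicate 3 (0.0542), effector replicate 1 (0.177) or effector replicate 3 (0.0558), and also without day 4 replicate 2 or 3 or day 14 replicate 1 or 2 (0.0579 to 0.0621). Psmc4 rose least at day 4, from 52.2 ± 8.43 to 74.2 ± 7.5 CPM (SD, n = 3; 0.51 ± 0.12 on the log2 scale, adjusted p = 0.0012). Psmc5 had the lowest effector against naive value of the ATPases and was not called (-0.16 ± 0.11 on the log2 scale, adjusted p = 0.311). Between day 14 and day 4, Psmc2 (0.08) and Psmc6 (-0.14) were the highest and lowest of the ring on the log2 scale, and neither passed the test (edgeR adjusted p = 0.754 and 0.393).

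The scaffold subunits of the base are Psmd1 and Psmd2. Psmd1 (chr1:86064387-86139151, plus strand) had 99.1, 104 and 109.6 CPM in the naive and 109, 107 and 88.2 CPM in the effector libraries. Libraries of day 4 held 267, 249 and 251 CPM and those of day 14 held 209, 219.9 and 225 CPM. Its tumour libraries were all well above the others, and day 4 was above day 14 in every library. Its rise at day 4 was the highest of the regulatory particle (1.29 ± 0.09 on the log2 scale, adjusted p = 4.33e-09), and at day 14 the rise was 1.06 (SE 0.09, edgeR adjusted p = 4.47e-08). Psmd2, which also binds ubiquitin-like shuttles, had 91.8, 96.5 and 106 CPM in the naive and 116, 126 and 109.9 CPM in the effector libraries. Day 4 gave 201, 184 and 170.1 CPM and day 14 gave 149.5, 161 and 157 CPM. It rose at day 4 (0.91 ± 0.09 on the log2 scale, adjusted p = 2.64e-07) and at day 14 (0.67 ± 0.09 on the log2 scale, adjusted p = 8.94e-06), and its effector against naive value was barely past the threshold (0.26 ± 0.09 on the log2 scale, adjusted p = 0.0497). That last call was lost under 16 of 18 alternatives, among them each of the 5 that leave out naive replicate 1 (adjusted p = 0.179), naive replicate 2 (0.126) or an effector library (0.0756 to 0.166).

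Psmd4, a ubiquitin receptor of the base, moved least. It had 84.5, 105 and 109 CPM in the naive and 110.1, 112 and 106 CPM in the effector libraries. In tumours there were 125, 116 and 117 CPM at day 4 and 105, 117 and 125 CPM at day 14. Naive replicate 1 was the lowest library and the other naive libraries overlapped with day 14. Psmd4 was called higher at day 4 (0.26 ± 0.10 on the log2 scale, adjusted p = 0.0331), a call lost without naive replicate 1 (adjusted p = 0.168) or day 4 replicate 1 (0.0857) and with total counts as scaling (0.077). At day 14 it was not called (0.22 ± 0.10 on the log2 scale, adjusted p = 0.0708), but it was with DESeq2 (adjusted p = 0.0448), RLE factors (0.0436), without naive replicate 3 (0.0356) or without day 14 replicate 1 (0.0322). Its promoter, shown above, holds the ETS-type motif and 3 NF-Y boxes.

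In the lid, Psmd14, the deubiquitinase that cuts chains off the substrate, had 77.5, 73.5 and 86.6 CPM in the naive and 61, 66.8 and 58.1 CPM in the effector libraries. Tumour libraries held 153, 152 and 154 CPM at day 4 and 138, 142 and 154 CPM at day 14. The effector libraries were the lowest, and the day 4 libraries lay within 2 CPM of each other. Psmd14 fell in effector cells (-0.35 ± 0.09 on the log2 scale, adjusted p = 0.00908), the only regulatory particle gene to do so, and rose at day 4 (0.95 ± 0.09 on the log2 scale, adjusted p = 1.42e-07) and day 14 (0.87 ± 0.09 on the log2 scale, adjusted p = 4.26e-07). The effector call was lost without naive replicate 3 (adjusted p = 0.0592). Psmd12 had the highest rise of the lid at day 4, from 82.2 ± 7.02 to 164 ± 14.9 CPM (SD, n = 3; 0.99 ± 0.10 on the log2 scale, adjusted p = 2.18e-07). Psmd11, a lid scaffold, had 46.3, 61 and 53 CPM in the naive and 54.4, 58.6 and 54.8 CPM in the effector libraries. Cells from tumours had 85.6, 83.6 and 85 CPM at day 4 and 79, 74.5 and 73.7 CPM at day 14, with all tumour libraries above the others (0.66 ± 0.10 on the log2 scale, adjusted p = 2.78e-05 at day 4 and 0.50 ± 0.10 on the log2 scale, adjusted p = 0.000399 at day 14, against naive).

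Psmd3 had the lowest rise of the lid (0.42 ± 0.16 on the log2 scale, adjusted p = 0.0316 at day 4). Its libraries held 26.6, 33 and 21.7 CPM in naive, 35.9, 35.4 and 37.5 at day 4 and 34.9, 43.8 and 29.4 at day 14, so day 14 overlapped with naive. The day 4 call was lost without naive replicate 1 (adjusted p = 0.0706), naive replicate 3 (0.136) or day 4 replicate 3 (0.0714), and the day 14 call without naive replicate 1 (0.0819), naive replicate 3 (0.159), day 14 replicate 1 (0.0506) or day 14 replicate 2 (0.223). Psmd7, the partner of Psmd14, had 66.3, 87.4 and 92.7 CPM in the naive and 98.7, 92.6 and 88.4 CPM in the effector libraries. At day 4 there were 162, 129.7 and 135 CPM and at day 14 there were 97.6, 119 and 116 CPM. It rose at day 4 (0.79 ± 0.13 on the log2 scale, adjusted p = 4.15e-05) and day 14 (0.44 ± 0.13 on the log2 scale, adjusted p = 0.00625) against naive, and its day 14 libraries were all below day 4. That last difference was the lowest value of both particles and did not pass the test (-0.36 ± 0.12 on the log2 scale, adjusted p = 0.0748), though it did without a filter on low counts (adjusted p = 0.0146) or without naive replicate 1 (0.0402). The remaining lid genes Psmd6, Psmd8 and Psmd13 rose in all 4 contrasts of tumour with other cells, by 0.52 to 0.91 on the log2 scale. Sirt3 on the other strand overlaps 10.13% of the exon bases of Psmd13 and moved the other way (-0.92 at day 4 against naive). The effect of this overlap on the Psmd13 counts was not tested.

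The tumour time points were then compared with each other. Between day 14 and day 4, edgeR called no core and no regulatory particle gene, where 7.17% of all tested genes were called higher and 4.91% lower. At an unadjusted p under 0.05, 2 core genes were higher and 2 lower, and no regulatory particle gene was higher and 4 were lower. DESeq2 called 1 core gene lower (Psma5) and no regulatory particle gene. The shares of all tested genes by these measures were not counted, so these counts have no background to be read against. The fold change was below 0 for 16 of 17 regulatory particle genes (median -0.11) and 6 of 14 core genes (median 0.0037), beside a median of -0.0039 over all tested genes. Of the 17 regulatory particle genes, 16 had their highest mean at day 4, against 6 of 14 core genes, again without a share over all tested genes. The core to regulatory ratio of summed CPM was 0.831, 0.815 and 0.807 in naive, 0.809, 0.901 and 0.869 in effector, 0.887, 0.896 and 0.974 in day 4 and 0.952, 0.994 and 0.994 in day 14 libraries. The tumour libraries lay above the naive ones, effector replicate 2 lay inside the day 4 range, and day 4 replicate 3 lay inside the day 14 range. No test was made of the ratio.

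The fold changes of the regulatory particle genes were also set beside the promoter motif that split the particles. At day 4 against naive, the 9 genes with the ETS-type motif had a median log2 fold change of 0.84 (range 0.26 to 0.99) and the 5 with a window but no match 0.85 (0.51 to 1.29). At day 14 the medians were 0.69 and 0.75.

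Levels between genes are compared per kilobase of exon, where exons of all annotated transcripts are joined, so a gene with long rarely used exons reads low. In naive cells, the core genes ran from 3.98 CPM per kilobase (Psmb7) to 72.9 (Psma6), and at day 4 from 8.59 to 156, with the same genes at the ends. In the regulatory particle, Psmd3 was lowest (5.46 in naive and 7.3 at day 4) and Psmc5 highest (62.5 and 113). The median over the core genes went from 29.2, 33.9 and 33.4 in the naive libraries to 58.4, 54.8 and 62.1 at day 4, and over the regulatory particle genes from 20.8, 24.1 and 26.2 to 38.1, 34.9 and 37.4. Of the 31 particle genes, 22 have under 10% of their sequence in common with other genes and under 10% of their exon bases overlapped. Of these, 22 were called higher at day 4 and 21 at day 14 against naive, where 33.4% and 33.6% of all tested genes were. Their median log2 fold changes were 0.83 and 0.77, against 0.03 and 0.04 over all tested genes.

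Few members were called between effector and naive cells. edgeR called 4 of 45 members higher and 2 lower, where 14.6% of all tested genes were called higher and 10.4% lower, and the members' own shares were 8.89% and 4.44%. The median log2 fold change was 0.17 over the core and 0.07 over the regulatory particle, against 0.01 over all tested genes. The genes called higher were Psmb1, Psmc1, Psmd2 and Psme2b and those called lower were Psmb6 and Psmd14. In the alpha ring none passed, with Psma1 highest (0.33 ± 0.13 on the log2 scale, adjusted p = 0.0821) and Psma2 lowest (0.02). Psma1 passed without naive replicate 2 (adjusted p = 0.0396) or without a filter on low counts (0.0359).

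The activators did not move together. Psme1 and Psme2, which form an interferon-responsive cap of the core, had different patterns. Psme1 had 155, 206 and 182 CPM in the naive and 195, 208 and 194 CPM in the effector libraries. Libraries of day 4 held 169.7, 168 and 174 CPM and those of day 14 held 145, 159.6 and 187 CPM. All groups overlapped with naive, and Psme1 was called lower only at day 14 against effector cells (-0.28 ± 0.11 on the log2 scale, adjusted p = 0.0315), a call lost without any effector library (adjusted p 0.0799 to 0.0914), day 14 replicate 1 (0.252), day 14 replicate 2 (0.135), day 4 replicate 2 (0.0724) or day 4 replicate 3 (0.0685). It was also lost with DESeq2 (adjusted p = 0.0759), RLE factors (0.0674) or total counts (0.0735). Psme2 had 106, 139.9 and 139 CPM in the naive and 117, 132 and 115 CPM in the effector libraries. Day 4 gave 177, 172 and 152 CPM and day 14 gave 163, 164 and 186 CPM. Its tumour libraries were all above the others (0.38 ± 0.11 on the log2 scale, adjusted p = 0.00676 at day 4 and 0.42 ± 0.11 on the log2 scale, adjusted p = 0.00374 at day 14, against naive).

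Psme2b (chr11:48945354-48946190, minus strand), a copy of Psme2 in a single exon, was the only member called lower at day 4 and at day 14 against naive. It had 69.8, 73.9 and 82.1 CPM in the naive and 84, 113 and 106 CPM in the effector libraries. In tumours there were 31.8, 30.2 and 34.6 CPM at day 4 and 39.7, 30.3 and 39.2 CPM at day 14. All tumour libraries were below all others, as for 19.5% of all tested genes, and it was the only member in that position. It fell at day 4 (-1.23 ± 0.13 on the log2 scale, adjusted p = 5.85e-07) and day 14 (-1.05 ± 0.13 on the log2 scale, adjusted p = 3.21e-06) against naive. In effector cells it rose (0.43 ± 0.13 on the log2 scale, adjusted p = 0.0219), a call lost without naive replicate 1 (adjusted p = 0.088), naive replicate 2 (0.0653), effector replicate 2 (0.094) or effector replicate 3 (0.0944). Of its 50-base words, 69.29% occur in other genes, mainly Psme2, which moved the other way. The gene 9930111J21Rik1 on the same strand, looked at after the values of Psme2b were seen, overlaps 4.90% of its exon bases, and its level followed the same order: 73.9, 96.2 and 86.8 CPM in the naive and 104, 116 and 123 CPM in the effector libraries. Tumour libraries held 12.1, 15.6 and 14.8 CPM at day 4 and 26.5, 24.3 and 24.2 CPM at day 14. The effect of this overlap on the Psme2b counts was not tested.

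Psme3, a nuclear activator, had 117, 137 and 136 CPM in the naive and 142, 128 and 148 CPM in the effector libraries. Cells from tumours had 194, 172 and 171 CPM at day 4 and 143, 159 and 160.0 CPM at day 14. The day 4 libraries were above all others, and Psme3 rose at day 4 (0.47 ± 0.09 on the log2 scale, adjusted p = 0.000415) and at day 14 (0.25 ± 0.09 on the log2 scale, adjusted p = 0.0314) against naive. The day 14 call was lost without naive replicate 1 (adjusted p = 0.15), day 14 replicate 2 (0.0919) or day 14 replicate 3 (0.0903). Psme4, an activator known for its role on chromatin, had 155, 150.3 and 149 CPM in the naive and 170.2, 180.5 and 172 CPM in the effector libraries. At day 4 there were 176, 184 and 192 CPM and at day 14 there were 186, 167 and 181 CPM. The naive libraries were the lowest, and the other groups overlapped (0.28 ± 0.08 on the log2 scale, adjusted p = 0.00484 at day 4 and 0.23 ± 0.08 on the log2 scale, adjusted p = 0.0167 at day 14, against naive). The day 14 call was lost without day 14 replicate 1 (adjusted p = 0.0569). Psmf1, an inhibitor of the core, had 45.7, 36.9 and 48.8 CPM in the naive and 61.7, 45.2 and 51.5 CPM in the effector libraries. Libraries of day 4 held 45.8, 40.2 and 49.1 CPM and those of day 14 held 58.4, 55.5 and 50.3 CPM. Psmf1 was called only at day 14 against naive (0.32 ± 0.13 on the log2 scale, adjusted p = 0.0482). That call was lost without naive replicate 1 (adjusted p = 0.0654), naive replicate 2 (0.204), day 14 replicate 1 (0.131), day 14 replicate 2 (0.105), effector replicate 3 (0.0525) or day 4 replicate 3 (0.0502).

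Of the 4 assembly chaperones of the core, only Psmg1 was called in any contrast. Psmg1, which pairs with Psmg2 to build the alpha ring, had 16.2, 14.1 and 18.4 CPM in the naive and 12.9, 12.8 and 12.4 CPM in the effector libraries. Day 4 gave 30.2, 31.5 and 20.7 CPM and day 14 gave 13.5, 14.8 and 19.98 CPM. The day 4 libraries were above all others, and the effector libraries were the lowest. It rose at day 4 (0.76 ± 0.19 on the log2 scale, adjusted p = 0.00242), lay at -0.01 at day 14 against naive (edgeR adjusted p = 0.956), and was the only member called between day 14 and day 4 (-0.77 ± 0.19 on the log2 scale, adjusted p = 0.0123). This call was lost without day 4 replicate 1 (adjusted p = 0.0557), day 4 replicate 2 (0.0635), day 14 replicate 1 (0.0554) or day 14 replicate 2 (0.0536), with log2 fold changes of -0.73 to -0.67. Psmg2, Psmg3 and Psmg4 were called in no contrast. Psmg2 had 26.6 ± 3.83 CPM in naive and 25.6 ± 1.05 at day 4 (SD, n = 3; -0.06 ± 0.13 on the log2 scale, adjusted p = 0.735). Psmg3 and Psmg4 had low levels, 3.66 ± 1.39 and 7.89 ± 1.05 CPM in naive and 3.41 ± 1.03 and 6.08 ± 0.286 CPM at day 4 (SD, n = 3). For Psmg3 the difference was -0.11 ± 0.38 on the log2 scale (adjusted p = 0.823).

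**Figure D5:**
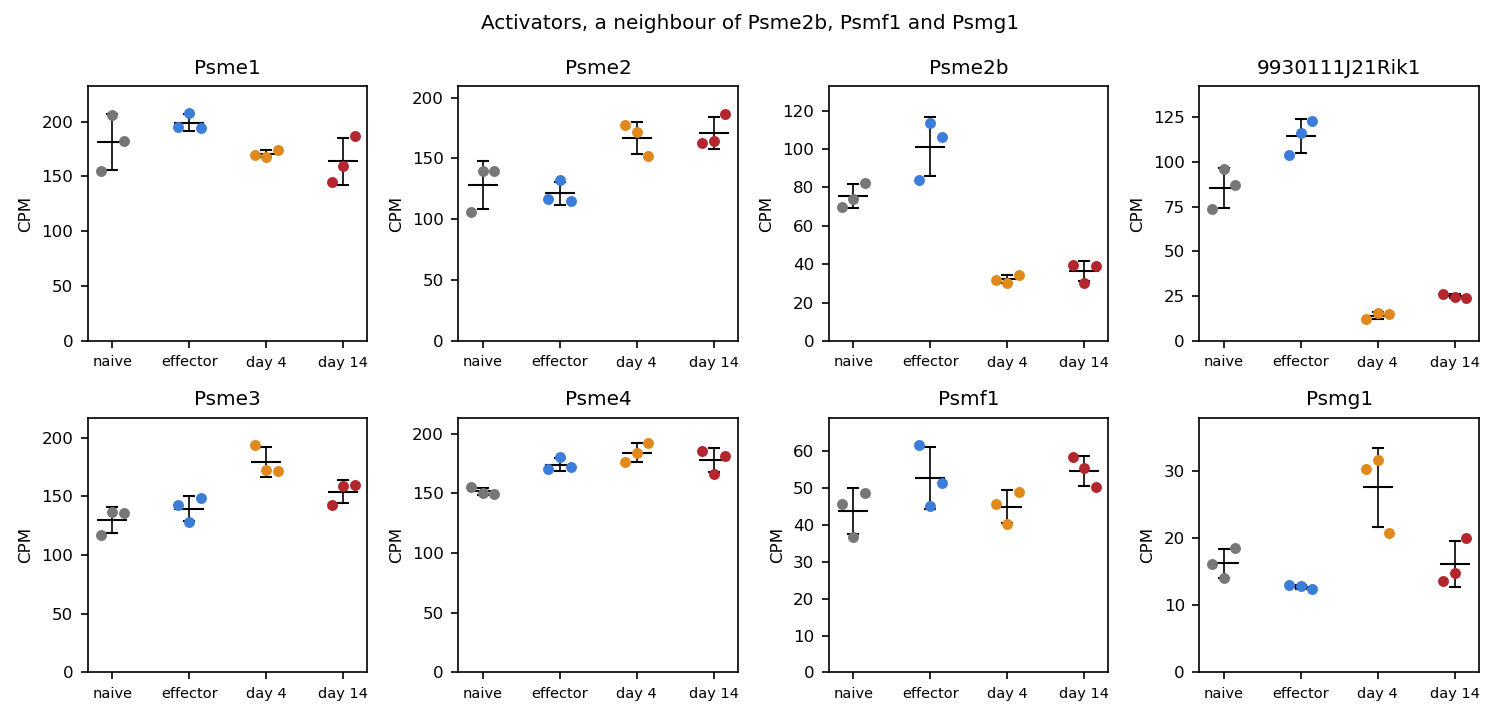
CPM (vertical axes, from 0) of the activators Psme1, Psme2, Psme2b, Psme3 and Psme4, of 9930111J21Rik1 beside Psme2b, of Psmf1 and of Psmg1 in 4 groups, with 1 point per library and bars of mean ± SD (n = 3). Psme2b and 9930111J21Rik1 are both low in the tumour groups, and Psmg1 is high at day 4 only.

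The base chaperones were split. Psmd9 had 9.9, 12.9 and 8.96 CPM in the naive and 9.71, 9.12 and 9.44 CPM in the effector libraries. In tumours there were 19.4, 16.8 and 20.4 CPM at day 4 and 24.6, 19.8 and 19.98 CPM at day 14, with tumour libraries above the others (0.83 ± 0.17 on the log2 scale, adjusted p = 0.000588 at day 4 and 1.02 ± 0.17 on the log2 scale, adjusted p = 9.31e-05 at day 14, against naive), though the long noncoding gene Gm26745 overlaps 25.51% of its exon bases. Psmd10, also known as gankyrin, had 15.2, 15.1 and 20.5 CPM in the naive and 17.3, 20.8 and 18.3 CPM in the effector libraries. Tumour libraries held 25, 27.3 and 28.3 CPM at day 4 and 27.7, 25.6 and 23.6 CPM at day 14 (0.67 ± 0.15 on the log2 scale, adjusted p = 0.00124 at day 4 and 0.60 ± 0.15 on the log2 scale, adjusted p = 0.0029 at day 14, against naive), again with no overlap. Psmd5 had 40.9, 44.5 and 40.3 CPM in the naive and 47.6, 47.2 and 51.6 CPM in the effector libraries. Cells from tumours had 44.4, 44.4 and 42.6 CPM at day 4 and 37, 37.1 and 37.3 CPM at day 14. Its day 14 libraries were the lowest, and it was called only at day 14 against effector cells (-0.39 ± 0.10 on the log2 scale, adjusted p = 0.00239).

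The tissue-restricted core subunits were near the limit of detection and were not tested. Psma8, of testis, had 0, 3, 8 and 0 counts summed over the 3 libraries of the naive, effector, day 4 and day 14 groups, and Psmb11, of thymic epithelium, had 3, 0, 2 and 20. Most Psmb11 counts of day 14 came from replicate 1, at 1.19 CPM against 0.118 and 0 in the others, and that library had the highest melanoma marker sum. The part of tumour RNA in this value was not tested. Psmc3ip, which is no subunit, had the highest fold change of all members. It had 6.5, 5.1 and 7.65 CPM in the naive and 6.76, 4.82 and 6.27 CPM in the effector libraries. At day 4 there were 17.8, 23.1 and 23.7 CPM and at day 14 there were 18, 19.2 and 20.6 CPM, with all tumour libraries above the others (1.74 ± 0.20 on the log2 scale, adjusted p = 1.23e-06 at day 4 and 1.59 ± 0.20 on the log2 scale, adjusted p = 3.6e-06 at day 14, against naive). Mlx overlaps 21.18% of its exon bases on the other strand and was not called (-0.25 at day 4 against naive, edgeR adjusted p = 0.142).

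Other genes of the pathway were read from a list of 35 genes found in the tables. Of these, 19 were called higher and 6 lower at day 4 against naive, and 19 and 5 at day 14, where 33.4% and 28.8% of all tested genes were called at day 4 and 33.6% and 28.5% at day 14. Subunits and assembly factors named outside the Psm pattern included 7 of 8 called higher and none lower at both time points (33.4% and 33.6% of all tested genes were called higher). Txnl1, a thioredoxin-like protein bound to the regulatory particle, rose most, from 24.5, 27.7 and 33.1 CPM in naive to 90.7, 91.4 and 85.9 at day 4 (1.65 ± 0.11 on the log2 scale, adjusted p = 2.07e-09), and the ubiquitin receptor Adrm1 least of those called (0.30 ± 0.12 on the log2 scale, adjusted p = 0.0451). The deubiquitinases Uchl5 (1.45) and Usp14 (0.72), the core maturation factor Pomp (0.96), the lid subunit Sem1 (0.93) and the adaptor Ecpas (0.74) lay between them on the log2 scale. Akirin2, an importer of proteasomes into the nucleus, was not called (0.04 ± 0.13 on the log2 scale, adjusted p = 0.787).

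Of the genes that control the transcription of proteasome genes, 1 of 7 was higher and 3 lower at day 4 against naive (33.4% and 28.8% of all tested genes), and 1 was higher and 4 lower at day 14 (33.6% and 28.5%). Stat3 had 162, 234 and 192 CPM in the naive and 182, 189.7 and 216 CPM in the effector libraries. Libraries of day 4 held 1092, 864 and 867 CPM and those of day 14 held 1314, 1201 and 1074 CPM, with all tumour libraries above the others (2.26 ± 0.14 on the log2 scale, adjusted p = 1.79e-09 at day 4). Nfe2l1, the factor of the bounce-back response to proteasome inhibition, was not called against naive (0.17 ± 0.10 on the log2 scale, adjusted p = 0.163 at day 4). Against effector cells, 2 of 7 genes were higher and 5 lower at day 4 (32.7% and 29.2% of all tested genes), and 2 and 4 at day 14 (32.6% and 28.4%). Nfe2l1 was among those higher at both, with means of 70.5 CPM in effector cells, 83.3 at day 4 and 85.6 at day 14. Its relative Nfe2l2 had 117, 116 and 110.4 CPM in the naive and 114, 164 and 83.4 CPM in the effector libraries. Day 4 gave 68.2, 52.5 and 49.98 CPM and day 14 gave 33.7, 26.8 and 33.6 CPM. Its day 14 libraries were below day 4, and both were below the other groups (-1.01 ± 0.20 on the log2 scale, adjusted p = 0.000945 at day 4 and -0.86 ± 0.21 on the log2 scale, adjusted p = 0.0177 between day 14 and day 4). Ngly1, the glycanase that helps activate Nfe2l1, fell at day 4 (-0.97 ± 0.09 on the log2 scale, adjusted p = 1.79e-07) and was higher at day 14 than at day 4 (0.34, edgeR adjusted p = 0.0247). Bach1, a repressor at antioxidant response elements, had the lowest value of this group at day 4 against naive (-1.44 ± 0.21 on the log2 scale, adjusted p = 1.5e-05). At day 14 Nfe2l2 was lower (-1.87 on the log2 scale, edgeR adjusted p = 7.69e-06) than Bach1 (-0.94, edgeR adjusted p = 0.000702).

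Shuttle factors and the segregase that bring substrates to the proteasome included 6 of 11 genes higher and 1 lower at day 4 against naive (33.4% and 28.8% of all tested genes). The segregase Vcp had 74.2, 76.1 and 75.7 CPM in naive and 147, 155 and 128 at day 4 and rose most (0.93 ± 0.09 on the log2 scale, adjusted p = 9.52e-08), while its cofactor Ufd1 fell (-0.26 ± 0.09 on the log2 scale, adjusted p = 0.0131). Ubqln4 was the only gene of this group called between day 14 and day 4 (-0.52 ± 0.14 on the log2 scale, adjusted p = 0.0252).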

How the data were processed

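Gene counts were analysed in 12 libraries, 3 in each of 4 groups taken from the labels. The authors deposited read counts for each gene. The submitters' processing notes name fastp 0.19.6, STAR 2.6.1b and genome build GRCm38. The annotation release and the options of counting were not given in the sources used here. The deposited unstranded count column was used, and its 4 summary lines were left out (reads outside genes made up 20.7% to 30.2%). Per the labels' protocols, mRNA was taken on beads and its cDNA amplified and tagmented, with no molecular identifiers described, so reads are not independent molecules. Identifiers were matched to GENCODE M21 without versions (55141 of 55401).

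Counts passed filterByExpr (16426 genes, 45 of the 47 members) and were scaled by TMM in edgeR 4.0.16 (R 4.3.3). The robust quasi-likelihood test was fitted over all groups, for 6 contrasts and a 4-group F test. P-values were adjusted by Benjamini-Hochberg over all genes and called under 0.05, and each SE was taken from the fold change and its F value. The test was checked on simulated data. Levels are TMM-scaled CPM as mean ± SD (n = 3). Words of 50 bases gave the sequence a gene has in common with others. Alternatives were RLE factors, total counts, no filter, DESeq2 1.42.0, fits of 2 groups, a replicate block and leaving out each library.

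Genes named with full values are a fixed panel of catalytic, regulatory and assembly members, the highest and lowest of each role group in 3 contrasts, subunits that moved against their group, and the extremes of the pathway list. Members and lists were chosen with earlier results of these data known. Single values of some genes of the pathway list are not reported here.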

Additional observations from a re-analysis of the deposited data

How the results depend on the processing

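The counts of members called in the tumour contrasts held under the alternatives, and the small counts did not. For effector against naive cells, the 4 genes called higher became 1 with total counts as scaling and 2 in a fit of these groups alone, and ranged from 1 to 4 when 1 library was left out, while the 2 called lower ranged from 1 to 2. The genes called lower were 2 in place of 1 at day 14 against naive with total counts, and at day 4 against effector cells in a fit of these groups alone. Between day 14 and day 4 they were 2 in place of 1 without a filter and with DESeq2, and ranged from 0 to 2 when 1 library was left out. The cause was not tested. The genes called higher at day 4 against naive ranged from 36 to 38 and at day 14 from 33 to 38 over all alternatives. Of 156 called pairs of a gene and a contrast, 140 were called under every alternative and all kept their sign, and of 2052 values of genes not called, 122 had the other sign and 20 were called. The median log2 fold change of all genes moved by over 0.1 with total counts in effector against naive cells (0.01 to -0.10), and without a filter at day 4 against naive (0.03 to 0.15) and against effector cells (0.06 to 0.28), and by less with RLE factors. With total counts, the effector calls of Psmc1, Psmd2 and Psme2b and the calls against naive of Psmd3 at both time points and of Psme3, Psme4 and Psmf1 at day 14 were lost (adjusted p = 0.0711 to 0.395), and Psmd5 was called lower at day 14 against naive (0.0378). Besides the calls named above, Psmb1 at day 14 against effector cells was lost without day 14 replicate 3 (edgeR adjusted p = 0.0786), Psmd10 without effector replicate 1 (0.0503), and Psmd3 against effector cells without any of several libraries (0.051 to 0.204). Genes with few counts, such as Psmg3, are limited by depth.

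The replicate numbers did not pair the libraries: over 18 pairs of the same number, correlations of deviations from group means ran from -0.0884 to 0.1015, with 1 over 0.1, and 4 of 12 libraries correlated best with their own number. With the numbers as a replicate block, 38 members were higher and 1 lower at day 4 against naive, 37 and 1 at day 14 against naive, 35 and 1 at day 4 against effector cells, 33 and 3 at day 14 against effector cells, 3 and 2 in effector against naive cells, 0 and 1 between day 14 and day 4, and 39 differed among the 4 groups.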
